A study of Mus musculus with 8 samples.

Results

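The 10 genes described here encode the enzymes that build fatty acids from acetyl-CoA and then lengthen and desaturate them. They were found by symbol among the 12528 genes listed in a table of normalized RNA-seq values, and all 10 (Acly, Acaca, Acss2, Fasn, Scd1, Scd2, Elovl5, Elovl6, Fads1 and Fads2) were listed and passed the filter on low values that 12494 genes passed. The cells were immortalized fibroblasts of mouse embryos (MEFs), prepared from littermates that were either wild-type (WT) or lacked Cav1 (Cav1KO), the gene of the caveola coat protein caveolin-1. They were seeded at low density on fibronectin-coated polyacrylamide hydrogels, and RNA was taken 24 h later. The 4 groups were WT on a soft gel, WT on a stiff gel, Cav1KO on a soft gel and Cav1KO on a stiff gel, with 2 libraries in each. All 4 groups shared the immortalization, the fibronectin coat, the seeding density and a medium with fetal bovine serum. How many lines or clones stand behind each genotype is not given in the sources used here, so a difference between genotypes cannot be told apart from a difference between the lines, and nothing says that the 2 libraries of a group came from separate cultures, so the p-values measure only the spread between these libraries.

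ATP citrate lyase (Acly) cleaves citrate to give cytosolic acetyl-CoA, and acetyl-CoA synthetase (Acss2) makes acetyl-CoA from acetate. Acetyl-CoA carboxylase (Acaca) turns acetyl-CoA into malonyl-CoA, and fatty acid synthase (Fasn) uses malonyl-CoA to build palmitate. Stearoyl-CoA desaturases (Scd1, Scd2) place the first double bond in saturated chains, the elongases (Elovl5, Elovl6) add carbon pairs, and the desaturases Fads1 and Fads2 act on polyunsaturated chains. Many of these genes are known targets of the sterol regulatory element binding proteins (SREBPs), transcription factors that are released from membranes by proteolysis. Fibroblasts make fatty acids mainly for membrane lipids.

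In the GENCODE M21 annotation of GRCm38, 3 of the genes lie on chromosome 11, Acly at chr11:100476353-100528000 and Fasn at chr11:120805846-120824547 on the minus strand and Acaca at chr11:84129672-84401651 on the plus strand. On chromosome 19 lie both desaturase pairs, Scd1 (chr19:44394455-44407879, minus) with Scd2 (chr19:44293674-44306864, plus) and Fads2 (chr19:10062765-10101746, minus) with Fads1 (chr19:10182888-10196877, plus). The others are on the plus strand, Acss2 at chr2:155517948-155585724, Elovl5 at chr9:77917364-77984519 and Elovl6 at chr3:129532355-129638495. All 10 are annotated as protein-coding, and the deposited values are 1 per gene.

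The libraries held from 17089836 to 19944952 reads on listed genes, and the values are TMM-normalized read counts scaled to library size (CPM). Reads behind the members ranged from 82 to 172 per library for Acss2, the least abundant, and from 10025 to 22778 for Scd2, the most abundant. Cav1 did not exceed 0.411 CPM in any Cav1KO library and reached at least 949.8 CPM in each WT library. Of 10 fibroblast markers, 9 were listed, and their summed level was 12046 to 12196 CPM in WT soft, 9255 to 9428 CPM in WT stiff, 13525 to 13575 CPM in Cav1KO soft and 4500 to 5610 CPM in Cav1KO stiff. The sum was lower on the stiff gel in both genotypes and lowest in Cav1KO stiff. Of the 9 markers Col1a1 went the other way in WT, at 2035 and 2273 CPM on soft and 2612 and 2515 CPM on stiff. The part of these markers in the stiffness and genotype results below was not tested. No epithelial, muscle or endothelial marker of those examined was listed.

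On the stiff gel the genes of palmitate synthesis were higher in WT cells, with Fasn at 2.01 times and Acaca at 2.13 times its mean on the soft gel, while the desaturase genes Scd1 and Scd2 did not pass the test there. In Cav1KO cells Fasn rose on the stiff gel to 1.64 times, Scd2 to 1.54 times and Scd1 to 1.23 times the soft level, and Acaca did not pass the test. The WT and Cav1KO effects were not shown to differ for Fasn or Acaca (adjusted p = 0.280 and 0.112 for the interaction). Between genotypes the desaturases split, since Scd1 and Scd2 were lower and Fads1, Fads2 and the elongase gene Elovl6 were higher in Cav1KO cells on both gels. A gene is called here when its adjusted p, from limma's moderated test on log2(CPM + 1) with Benjamini-Hochberg adjustment over all genes, is below 0.05. All differences below are on that log2 scale, which understates the change of low genes such as Acss2.

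Of the 10 genes, 5 passed the threshold as higher and 2 as lower on the stiff gel in WT cells, where 22.1% of all genes tested were called higher and 26.3% lower. In Cav1KO cells 6 passed as higher and 0 as lower, against 27.9% and 28.2% of all genes. None of the 10 fell in Cav1KO cells at an unadjusted p below 0.05 either, and edgeR and DESeq2 on the recovered reads also called 0 lower. The stiffness effect in WT minus that in Cav1KO (the interaction) was called higher for 0 and lower for 2 genes, against 4.47% and 6% of all genes, with 1 gene (Acaca) higher at an unadjusted p below 0.05 and 0 higher by edgeR or DESeq2. With the genotypes compared on the stiff gel, 4 genes were called higher and 4 lower in Cav1KO cells, against 25% and 26.6% of all genes. On the soft gel 3 were called higher and 3 lower, against 24.1% and 29.9%. The median log2 difference of the 10 genes was 0.17 for stiffness in WT and 0.34 in Cav1KO, beside -0.02 over all genes in each. These comparisons share libraries and are set side by side only.

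**Figure D1:**
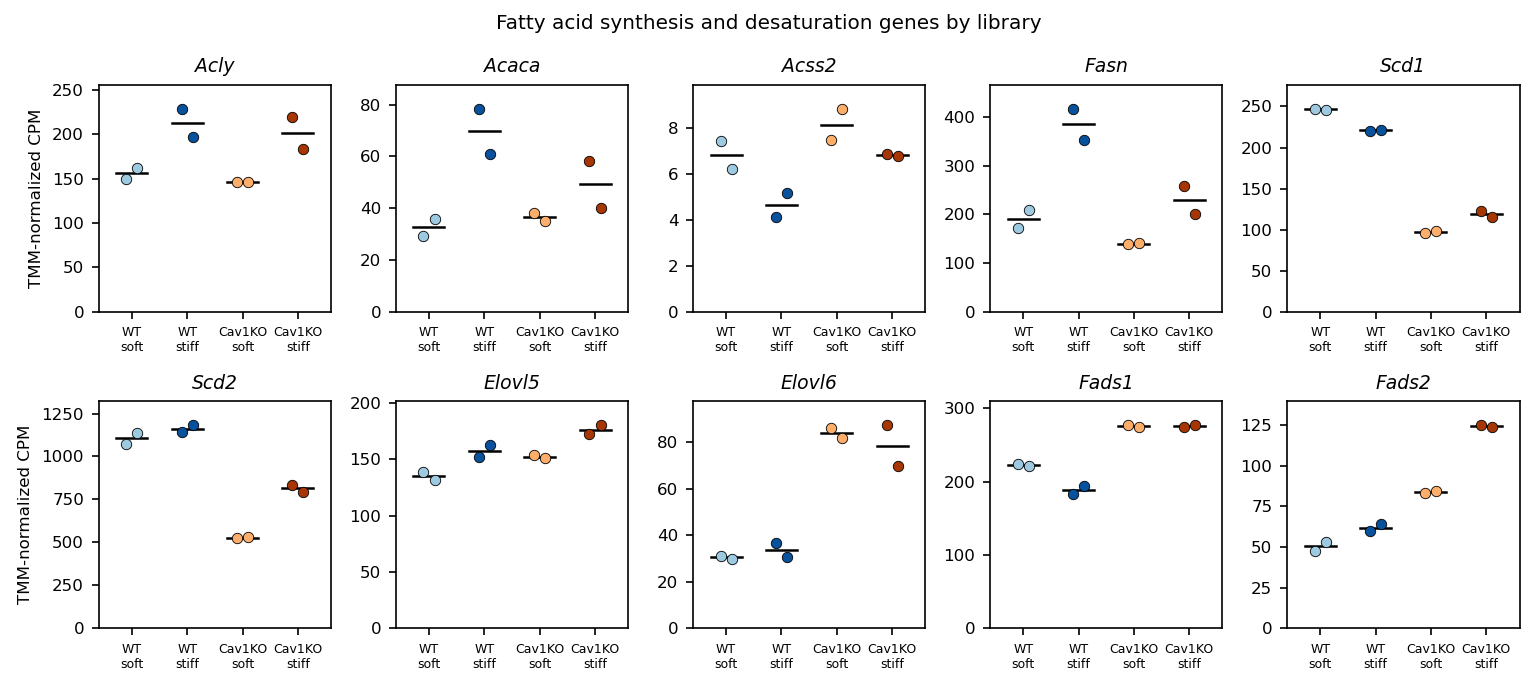
TMM-normalized CPM (y axes, linear and starting at 0) of the 10 genes in the 8 libraries, with groups on the x axes; each point is a library and each bar the mean of 2. Fasn and Acly lie higher on the stiff gel in both genotypes, Scd1 and Scd2 lie lower in the Cav1KO libraries, and Elovl6, Fads1 and Fads2 lie higher there.

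Acly on chromosome 11 was at 150.2 and 162 CPM in the WT soft libraries, 229 and 197 CPM in WT stiff, 146 and 146 CPM in Cav1KO soft, and 219 and 183 CPM in Cav1KO stiff. In both genotypes every stiff library was above every soft library. The log2 difference was 0.44 (SE 0.10, adjusted p = 0.00832) in WT and 0.45 (SE 0.10, adjusted p = 0.00599) in Cav1KO cells. The WT effect minus the Cav1KO effect was -0.01 (adjusted p = 0.967, 95% interval -0.35 to 0.33). Between genotypes it differed by -0.08 on the stiff and -0.09 on the soft gel, with adjusted p = 0.538 and 0.479, values that missed the threshold. The call in WT was lost without WT soft replicate 1 (adjusted p = 0.0654) or without WT stiff replicate 1 (adjusted p = 0.0610), with quantile normalization ending the Cav1KO call (adjusted p = 0.0619).

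Fasn, also on chromosome 11, was at 173 and 209 CPM in the WT soft libraries, 417 and 353 CPM in WT stiff, 139 and 141 CPM in Cav1KO soft, and 258 and 200.3 CPM in Cav1KO stiff. The WT stiff libraries held the highest values and the Cav1KO soft libraries the lowest, and the stiff and soft libraries overlapped in neither genotype. Fasn rose on the stiff gel by 1.01 (SE 0.14, adjusted p = 0.000562) in WT and by 0.70 (SE 0.14, adjusted p = 0.00285) in Cav1KO cells, and both calls held in all 17 alternative fits. The difference between the effects, 0.31, missed the threshold (adjusted p = 0.280, 95% interval -0.13 to 0.76). Fasn was lower in Cav1KO than in WT cells, with log2 differences of -0.75 on the stiff gel (SE 0.14, adjusted p = 0.00209) and -0.44 on the soft gel (SE 0.14, adjusted p = 0.0257). The soft-gel call was lost without WT soft replicate 2 (-0.30, adjusted p = 0.168), without either Cav1KO soft library (adjusted p = 0.104 without replicate 1 and 0.0926 without replicate 2) and with quantile normalization (adjusted p = 0.0628).

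Acly and Fasn are the genes of this group called higher on stiff in both genotypes for which the stretch before the start holds no annotated exon. The 250 bases before each start are shown for that reason, as given by RefSeq for GRCm38.p6 (Acly at chr11:100528001-100528250 and Fasn at chr11:120824548-120824797, both on the minus strand, printed 5′ to 3′), with capitals marking matches to the motifs searched.
Acly: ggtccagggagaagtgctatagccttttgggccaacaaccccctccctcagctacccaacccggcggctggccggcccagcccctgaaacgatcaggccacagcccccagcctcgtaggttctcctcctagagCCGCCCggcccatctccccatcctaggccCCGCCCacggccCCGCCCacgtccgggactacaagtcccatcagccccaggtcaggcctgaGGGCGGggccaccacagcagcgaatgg
Fasn: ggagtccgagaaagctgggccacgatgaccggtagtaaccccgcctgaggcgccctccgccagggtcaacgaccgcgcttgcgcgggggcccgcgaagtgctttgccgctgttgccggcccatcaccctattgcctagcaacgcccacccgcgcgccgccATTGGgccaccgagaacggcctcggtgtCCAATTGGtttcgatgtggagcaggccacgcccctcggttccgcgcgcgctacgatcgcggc
Acly held 4 matches to the Sp1 letters GGGCGG or their complement, the nearest ending 22 bases before the start. Fasn held 3 matches to the NF-Y letters CCAAT or their complement, 2 of which overlap. Promoters of 7 of the 10 genes were in the table (not those of Scd1, Scd2 and Fads1), and both strands of the 250 bases were searched for exact letters. CCAAT was found in 3 of the 7 (Acss2, Elovl5 and Fasn) and in 33.9% of 32851 promoters of the same length, and GGGCGG in 3 of 7 (Acly, Acss2 and Fads2) and in 32.7%. The SRE-like letters TCACNCCAC were found in 0 of the 7 and in 1.05% of all promoters. The E-box CACGTG was in that of Elovl5 and in 6.02% of all, and the TEAD letters GGAATG were in that of Acss2, with 3 matches, and in 12.6% of all. Of the 250 bases searched, 243 for Fads2, 129 for Elovl6, 95 for Acss2 and 1 for Elovl5 lie in annotated exons. The stretch for Acaca, chr11:84195188-84195437, lies inside the annotated gene. For these genes the stretch searched does not lie wholly before the annotated start. These are matches of letters in a short window, and no binding was measured.

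Acaca was at 29.4 and 35.9 CPM in the WT soft libraries, 78.4 and 61.1 CPM in WT stiff, 38.1 and 35.2 CPM in Cav1KO soft, and 58.3 and 40.1 CPM in Cav1KO stiff. The WT stiff libraries were the highest, and the 2 Cav1KO stiff libraries lay far apart but both above the soft ones. Acaca rose by 1.07 on the stiff gel in WT cells (SE 0.19, adjusted p = 0.00188), a call that held in all 17 alternatives. In Cav1KO cells the difference was 0.39 (SE 0.19, adjusted p = 0.104), which became a call without Cav1KO stiff replicate 2 (0.66, adjusted p = 0.0127), with median centring (adjusted p = 0.0398) and with DESeq2 (adjusted p = 0.0496). The interaction of 0.68 missed the threshold (SE 0.26, adjusted p = 0.112) and passed it without Cav1KO stiff replicate 1 (0.94, adjusted p = 0.0188). On the stiff gel Acaca was lower in Cav1KO than in WT cells (-0.51, SE 0.19, adjusted p = 0.0481), a call kept in 8 of 17 alternatives. It was lost without any of 6 libraries, all but WT stiff replicate 2 and Cav1KO stiff replicate 1, with adjusted p from 0.0605 to 0.278, the latter without Cav1KO stiff replicate 2 (-0.24). On the soft gel the genotypes overlapped (0.17, adjusted p = 0.473). Of the 60-base windows of the Acaca transcript 50.4% also occur in the pseudogene Gm5182, which is not in the table, so the Acaca values are uncertain where reads were shared.

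Acss2 on chromosome 2 was the member with the lowest values, at 7.43 and 6.23 CPM in the WT soft libraries, 4.12 and 5.19 CPM in WT stiff, 7.48 and 8.85 CPM in Cav1KO soft, and 6.89 and 6.80 CPM in Cav1KO stiff. The WT stiff libraries were the lowest of the 8. Acss2 fell by 0.47 on the stiff gel in WT cells (SE 0.16, adjusted p = 0.0342), in the opposite direction to Acly, the other source of cytosolic acetyl-CoA. In Cav1KO cells the difference was -0.22 (adjusted p = 0.259), and the interaction was -0.25 (adjusted p = 0.436), so the effects were not shown to differ. It was higher in Cav1KO than in WT cells on the stiff gel by 0.48 (SE 0.16, adjusted p = 0.0307) and on the soft gel by 0.23 (adjusted p = 0.248), which missed the threshold. The WT call was lost without WT soft replicate 1 (adjusted p = 0.185) or WT stiff replicate 1 (0.190) and with median centring, quantile normalization or DESeq2. The call on the stiff gel was lost without WT stiff replicate 1 (adjusted p = 0.181), either Cav1KO stiff library (0.0777 and 0.0797) or with DESeq2 (0.104). The annotated antisense gene Acss2os and the neighbour Ggt7 share 6.76% of the 60-base windows of Acss2 with it, and the kit does not keep strand.

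Scd2 on chromosome 19 was the most abundant member, at 1074 and 1138 CPM in the WT soft libraries, 1144 and 1181 CPM in WT stiff, 524 and 532 CPM in Cav1KO soft, and 833 and 796 CPM in Cav1KO stiff. All 4 Cav1KO libraries were below all 4 WT libraries. Scd2 rose by 0.62 on the stiff gel in Cav1KO cells (SE 0.07, adjusted p = 0.000157) and differed by 0.07 in WT cells (adjusted p = 0.432, 95% interval -0.09 to 0.24). These effects differed by -0.55 (SE 0.10, adjusted p = 0.0208). Compared with WT cells, Cav1KO cells had a Scd2 level 2.09-fold lower on the soft gel (log2 difference -1.06, SE 0.07, adjusted p = 5.89e-06) and 1.43-fold lower on the stiff gel (-0.51, SE 0.07, adjusted p = 0.000453). Those genotype calls and the rise in Cav1KO cells held in all 17 alternatives. The interaction call was lost without WT soft replicate 1 (adjusted p = 0.0557) or 2 (0.0584), WT stiff replicate 1 (0.0844), or Cav1KO soft replicate 1 (0.130) or 2 (0.107), with values from -0.59 to -0.51.

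Scd1 lies on the opposite strand of the same chromosome, 87590 bases from Scd2 with Scd4 between them. It was at 247 and 246 CPM in the WT soft libraries, 219.7 and 222 CPM in WT stiff, 95.9 and 97.8 CPM in Cav1KO soft, and 122 and 115 CPM in Cav1KO stiff. Every Cav1KO library was again below every WT library, and the replicates lay close together. Scd1 rose by 0.29 on the stiff gel in Cav1KO cells (SE 0.06, adjusted p = 0.00494) and differed by -0.16 in WT cells (SE 0.06, adjusted p = 0.0745), where both stiff libraries were below both soft libraries. The interaction was -0.45 (SE 0.09, adjusted p = 0.0286). In Cav1KO cells Scd1 was 2.54-fold lower than in WT on the soft gel (log2 difference -1.34, SE 0.06, adjusted p = 8.38e-07) and 1.86-fold lower on the stiff gel (-0.89, SE 0.06, adjusted p = 9.94e-06), in all 17 alternatives. The interaction call was lost without WT soft replicate 1 (adjusted p = 0.0897) or 2 (0.0641), WT stiff replicate 1 (0.102), or Cav1KO soft replicate 1 (0.143) or 2 (0.112). Quantile normalization made the WT fall a call (-0.23, adjusted p = 0.0182) and ended the Cav1KO call (0.15, adjusted p = 0.0849). Scd1 and Scd2 share 109 windows of 60 bases, 2.28% of those of Scd1, and Scd3 and Scd4 were not listed.

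**Figure D2:**
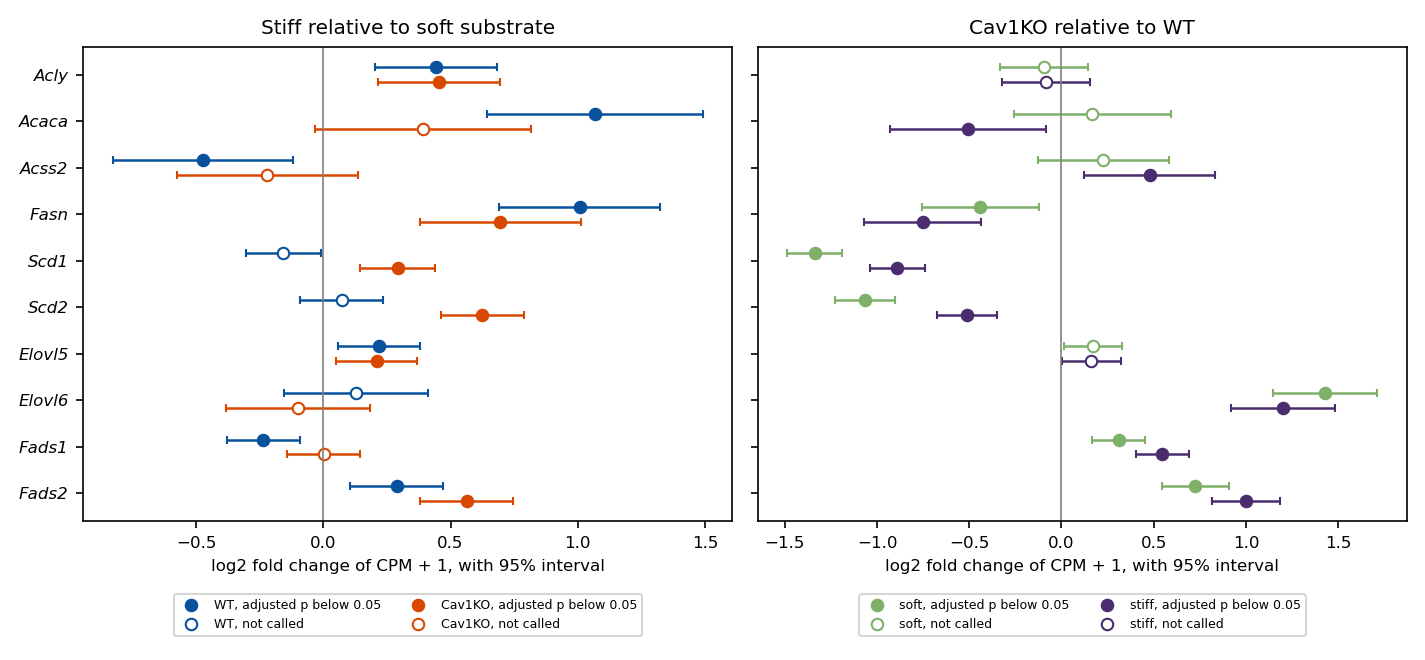
Log2 differences on the log2(CPM + 1) scale (x axes) with 95% intervals for the 10 genes, for stiff relative to soft in each genotype (left) and Cav1KO relative to WT on each gel (right); filled points are calls at an adjusted p below 0.05. On the left Scd1 and Scd2 have separated intervals for the 2 genotypes, and on the right they are the lowest on the soft gel, at -1.34 and -1.06, with Elovl6 the highest at 1.43.

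Fads2, the desaturase that opens the pathway to long polyunsaturated chains, was at 47.7 and 53.1 CPM in the WT soft libraries, 59.6 and 63.9 CPM in WT stiff, 83.1 and 84.6 CPM in Cav1KO soft, and 125 and 124 CPM in Cav1KO stiff. The order of the 4 groups was WT soft, WT stiff, Cav1KO soft and Cav1KO stiff, and no neighbours in that order overlapped. Fads2 rose on the stiff gel by 0.29 in WT (SE 0.08, adjusted p = 0.0169) and by 0.56 in Cav1KO cells (SE 0.08, adjusted p = 0.000479). The interaction of -0.28 missed the threshold (SE 0.11, adjusted p = 0.125). It was higher in Cav1KO cells by 1.0 on the stiff gel (SE 0.08, adjusted p = 1.70e-05) and by 0.72 on the soft gel (SE 0.08, adjusted p = 0.000107), in all 17 alternatives. The WT call was lost without WT soft replicate 1 (0.21, adjusted p = 0.112) and without WT stiff replicate 2 (0.24, adjusted p = 0.0920).

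Fads1, which acts later in that pathway, is the neighbour of Fads2 on chromosome 19, with 81141 bases between them and the opposite orientation. It was at 224 and 221 CPM in the WT soft libraries, 184 and 193 CPM in WT stiff, 277 and 274 CPM in Cav1KO soft, and 275 and 277 CPM in Cav1KO stiff. The 4 Cav1KO libraries spanned about the same narrow range on both gels, above all WT libraries. Fads1 fell by 0.24 on the stiff gel in WT cells (SE 0.06, adjusted p = 0.0146), while Fads2 rose there. In Cav1KO cells the difference was 0.00 (adjusted p = 0.993, 95% interval -0.14 to 0.15), and the interaction of -0.24 missed the threshold (SE 0.09, adjusted p = 0.104). Fads1 was higher in Cav1KO cells by 0.55 on the stiff gel (SE 0.06, adjusted p = 0.000154) and by 0.31 on the soft gel (SE 0.06, adjusted p = 0.00335), in all 17 alternatives. The WT call was lost without WT soft replicate 1 (adjusted p = 0.0677), without WT stiff replicate 1 (adjusted p = 0.0840) and with median centring (-0.19, adjusted p = 0.0571).

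Elovl6, which lengthens palmitate to stearate, was at 31.2 and 29.8 CPM in the WT soft libraries, 36.5 and 30.5 CPM in WT stiff, 86.1 and 81.6 CPM in Cav1KO soft, and 87.2 and 69.9 CPM in Cav1KO stiff. The genotypes were far apart, and within each genotype the stiff and soft libraries overlapped. Elovl6 was 2.75-fold higher in Cav1KO than in WT cells on the soft gel (log2 difference 1.43, SE 0.12, adjusted p = 2.62e-05) and 2.34-fold higher on the stiff gel (1.2, SE 0.12, adjusted p = 7.81e-05), in all 17 alternatives. For stiffness the differences were 0.13 in WT (adjusted p = 0.425, 95% interval -0.16 to 0.41) and -0.10 in Cav1KO cells (adjusted p = 0.519, 95% interval -0.38 to 0.18), and these did not pass the test for a difference (0.23, adjusted p = 0.374).

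Elovl5, which lengthens polyunsaturated chains, was at 139 and 132 CPM in the WT soft libraries, 152 and 163 CPM in WT stiff, 154 and 151 CPM in Cav1KO soft, and 173 and 180.1 CPM in Cav1KO stiff. The shifts were small but the stiff libraries lay above the soft ones in both genotypes. Elovl5 rose on the stiff gel by 0.22 in WT (SE 0.07, adjusted p = 0.0308) and by 0.21 in Cav1KO cells (SE 0.07, adjusted p = 0.0309). These calls were kept in 9 and 11 of 17 alternatives. The WT call was lost without WT soft replicate 1 or 2, WT stiff replicate 2, or Cav1KO soft replicate 1 or 2 (adjusted p from 0.0614 to 0.153), and the Cav1KO call without Cav1KO soft replicate 1 or 2 or Cav1KO stiff replicate 2 (0.116 to 0.149). The interaction was 0.01 (95% interval -0.22 to 0.23). Quantile normalization took the Cav1KO difference to 0.06 (adjusted p = 0.441). Between genotypes the differences of 0.16 on the stiff gel (adjusted p = 0.0820) and 0.17 on the soft gel (adjusted p = 0.0674) missed the threshold, although the libraries did not overlap.

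Libraries that do not overlap were common in this design, since 9 of the 10 members did not overlap between gels in WT, 8 in Cav1KO, and 9 between genotypes on either gel, where 75.3%, 78.5%, 72.7% on stiff and 81.1% on soft of all genes did not. Within the stiff groups of both genotypes, replicate 1 was above replicate 2 for Acly, Acaca, Fasn and Elovl6. The sources used here do not say whether libraries with the same replicate number shared a day or batch. The fits reported here do not use the numbers, apart from 1 alternative with the replicate number as a block.

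Summed over the desaturases of saturated chains, Scd1 and Scd2 together stood at 1352 ± 44.0 CPM (SD, n = 2) in WT soft, 1383 ± 28 CPM in WT stiff, 625 ± 7.0 CPM in Cav1KO soft and 933 ± 31.6 CPM in Cav1KO stiff. Fads1 and Fads2 together stood at 273 ± 1.76, 250.4 ± 9.87, 359 ± 0.658 and 400.2 ± 0.685 CPM in the same order. The sums moved oppositely between genotypes, and the ratio of the Scd sum to the Fads sum was 4.96 and 5.53 in WT soft and stiff against 1.74 and 2.33 in Cav1KO soft and stiff. Acly, Acaca and Fasn summed to 380 ± 38.7 CPM in WT soft, 667 ± 79.8 CPM in WT stiff, 323 ± 1.15 CPM in Cav1KO soft and 480 ± 78.9 CPM in Cav1KO stiff. These sums and ratios describe the values above and were not tested.

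Within each pair the makeup also shifted. Scd2 over Scd1 was 4.35 and 4.63 in the WT soft libraries, 5.21 and 5.32 in WT stiff, 5.47 and 5.44 in Cav1KO soft, and 6.82 and 6.90 in Cav1KO stiff. The ratio was higher on the stiff gel in both genotypes, with no overlap. Fads1 over Fads2 was 4.69 and 4.15 in the WT soft libraries, 3.08 and 3.03 in WT stiff, 3.33 and 3.24 in Cav1KO soft, and 2.20 and 2.23 in Cav1KO stiff. That ratio was lower on the stiff gel in both genotypes, again with no overlap.

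**Figure D3:**
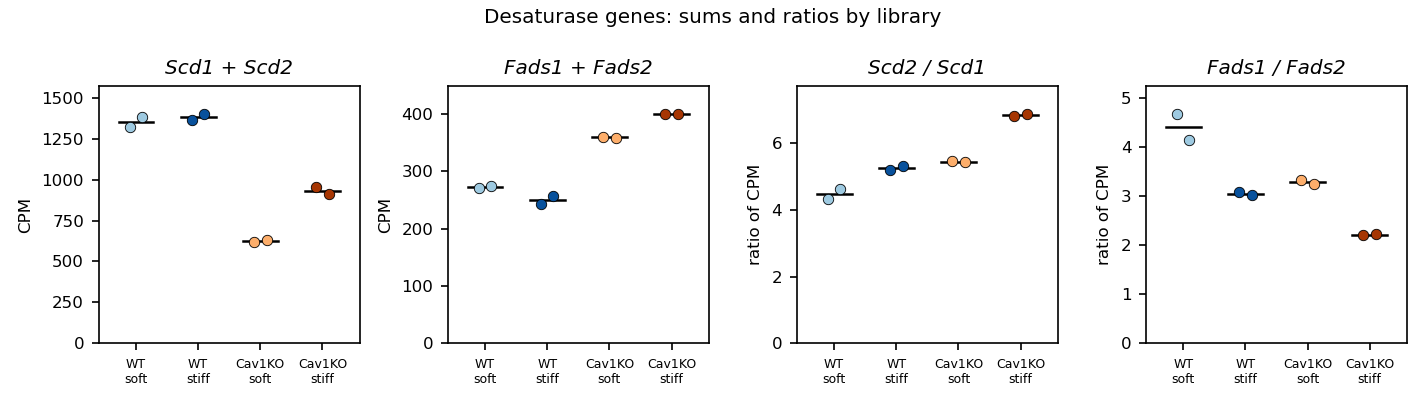
Sums of CPM for Scd1 with Scd2 and for Fads1 with Fads2, and the ratios within each pair (y axes, linear from 0), by library; points are libraries and bars are means of 2. The Scd sum is lowest in Cav1KO soft (625 CPM), the Fads sum is highest in Cav1KO stiff (400.2 CPM), and the Fads1 to Fads2 ratio falls from 4.42 in WT soft to 2.22 in Cav1KO stiff.

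Per kilobase of the principal transcript, which allows levels of different genes to be compared, Scd2 led in every group, with 203 CPM per kb in WT soft, 213 in WT stiff, 96.8 in Cav1KO soft and 149 in Cav1KO stiff. Acss2 was last in every group, from 1.59 to 2.78 CPM per kb. Scd1 was in place 3 in WT soft, at 51.0 CPM per kb, and in place 5 in WT stiff, at 45.7. It was in place 6 in both Cav1KO groups, at 20.0 in soft and 24.6 in stiff. Fads2 stood above Scd1 in both Cav1KO groups, at 26.6 and 39.5 CPM per kb, and below it in both WT groups, at 16 and 19.6. Neighbours in the order overlapped for Elovl5 with Fads1 and Acly with Scd1 in WT stiff, for Elovl6 with Fasn in Cav1KO soft, and for Scd1 with Fasn in Cav1KO stiff. All other neighbours were separated in their 2 libraries.

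Beside the genotype differences, markers of fat cells were examined, since these cells use the same enzymes. Of 10 such markers only Fabp4, Pparg and Retn were listed, while Adipoq, Plin1, Cidec, Cidea and Lep were not, nor was Cfd under either of its symbols. Their summed level was 7.24 to 10.3 CPM in the WT libraries, 162 to 167 CPM in Cav1KO soft and 110 to 114 CPM in Cav1KO stiff. Fabp4, a fatty acid binding protein, made up most of it in the Cav1KO libraries, at 102 to 158 CPM, and was at 0.201 to 2.48 CPM in WT. Pparg, the regulator of fat cell formation, made up most of it in the WT libraries, at 6.34 to 7.98 CPM, and was at 0.164 to 0.471 CPM in Cav1KO. Of 8 macrophage markers Cd68 and Cd14 were listed, with a sum of 24.9 to 40.4 CPM in WT and 92.8 to 104 CPM in Cav1KO libraries. Nearly all of that sum was Cd14, at 24.4 to 39.0 CPM in WT and 88.2 to 103 CPM in Cav1KO, while Cd68 overlapped between genotypes, at 0.552 to 1.56 and 1.04 to 4.55 CPM. The part of these genes in the genotype results was not tested. In bulk RNA, fewer cells of a type and less RNA per cell cannot be told apart.

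Of 22 regulators of lipid synthesis, 19 were tested. On the stiff gel 2 of them rose and 6 fell in WT cells, against 22.1% and 26.3% of all genes. In Cav1KO cells 5 rose and 6 fell, against 27.9% and 28.2%. The medians were -0.08 in WT and 0.09 in Cav1KO cells, beside -0.02 over all genes in each. Srebf1, which encodes the SREBP that drives fatty acid synthesis, was at 79.0 and 77.6 CPM in the WT soft libraries, 77.1 and 71.1 CPM in WT stiff, 76.3 and 83.6 CPM in Cav1KO soft, and 80.3 and 67.5 CPM in Cav1KO stiff, and passed no test, with adjusted p from 0.349 to 0.952. Srebf2, whose product drives cholesterol synthesis, was at 269 and 281 CPM in the WT soft libraries, 258 and 252 CPM in WT stiff, 314 and 335 CPM in Cav1KO soft, and 392 and 367 CPM in Cav1KO stiff. The Cav1KO libraries were all above the WT ones for Srebf2, with calls on the stiff gel (0.57, adjusted p = 0.000220) and the soft gel (0.24, adjusted p = 0.0195), and it rose on stiff in Cav1KO cells (0.23, adjusted p = 0.0234). The last 2 calls were lost without single libraries, up to adjusted p = 0.155 without Cav1KO soft replicate 2 for the soft gel and 0.177 without Cav1KO soft replicate 1 for stiffness. Scap, the escort of SREBPs, passed no test (adjusted p from 0.0885 to 0.666).

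Insig1, which holds SREBPs back in the endoplasmic reticulum and is itself an SREBP target, was at 72.1 and 60.0 CPM in the WT soft libraries, 37.9 and 45.3 CPM in WT stiff, 50.8 and 60.1 CPM in Cav1KO soft, and 64.3 and 77.4 CPM in Cav1KO stiff. The WT stiff libraries were the lowest. Insig1 fell by 0.66 in WT (adjusted p = 0.00546), the difference was 0.35 in Cav1KO cells (adjusted p = 0.0651), and the interaction was -1.0 (SE 0.20, adjusted p = 0.0266). The interaction was lost without WT soft replicate 1, WT stiff replicate 1, either Cav1KO soft library or Cav1KO stiff replicate 2 (adjusted p from 0.0606 to 0.130), and the WT fall without WT soft replicate 1 (0.0535). Insig2 fell in WT (-0.87, adjusted p = 0.000556) and in Cav1KO cells (-0.33, adjusted p = 0.0442), the latter call lost without any of the 4 Cav1KO libraries (0.0756 to 0.196). The SREBP protease gene Mbtps1 was higher in Cav1KO cells by 1.28 on the stiff and 1.42 on the soft gel (adjusted p = 2.39e-06 and 1.17e-06), while it fell on the stiff gel in Cav1KO cells (-0.33, adjusted p = 0.00465). Mbtps2, the other protease, rose there by 0.45 (adjusted p = 0.00215). Mid1ip1, whose product binds acetyl-CoA carboxylase, rose in Cav1KO cells by 0.68 (adjusted p = 0.000871) and differed by 0.22 in WT (adjusted p = 0.131).

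**Figure D4:**
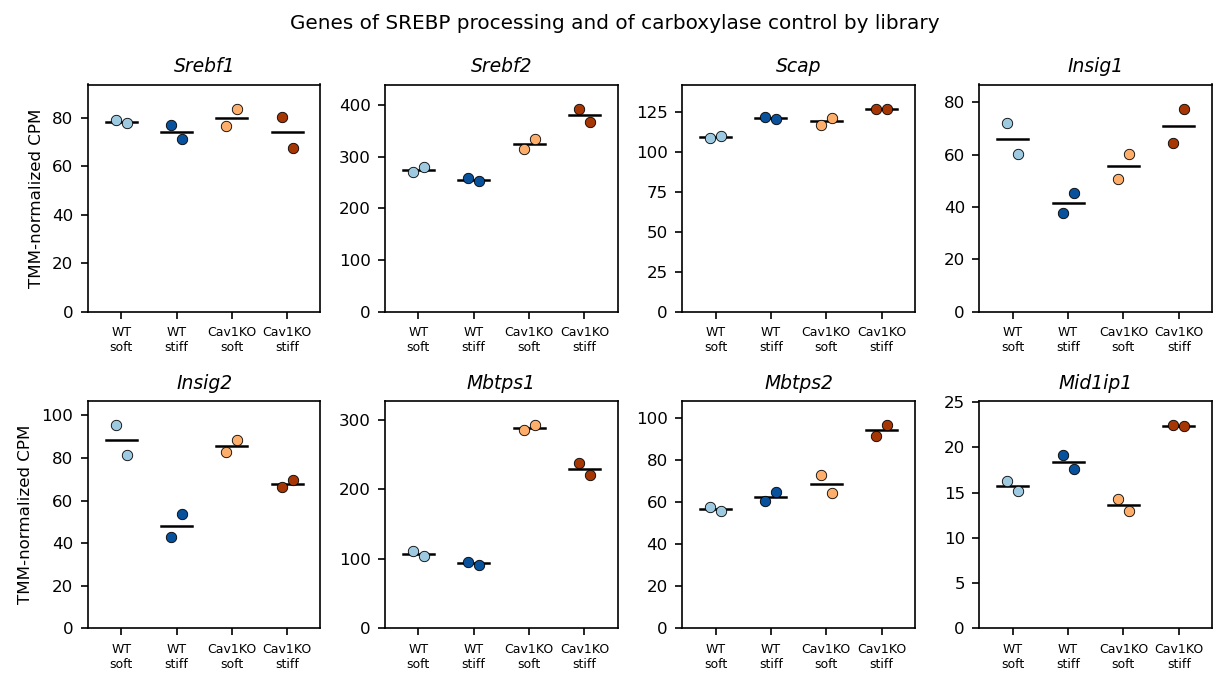
TMM-normalized CPM (y axes, linear from 0) of 8 regulators of the pathway by library; points are libraries and bars the mean of 2 for each group on the x axes. Srebf1 stays between 67.5 and 83.6 CPM in all 8 libraries, and Mbtps1 lies above 200 CPM in the Cav1KO libraries alone.

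Among the other regulators examined, Nr1h2, a liver X receptor, fell on the stiff gel (-0.43 in WT and -0.39 in Cav1KO cells, adjusted p = 0.00275 and 0.00359), in all 17 alternatives. Usf1 fell as well (-0.40, adjusted p = 0.00261, and -0.23, adjusted p = 0.0268), as did Rxra (-0.33, adjusted p = 0.00761, and -0.21, adjusted p = 0.0411). The Cav1KO calls of Usf1 and Rxra were each lost without any of the 4 Cav1KO libraries, and the WT call of Rxra without WT soft replicate 1 (adjusted p = 0.0595). Of the NF-Y subunits, Nfya rose in WT by 0.30 (adjusted p = 0.0235), Nfyb in Cav1KO by 0.52 (adjusted p = 0.0102), and Nfyc in both, by 0.23 (adjusted p = 0.0320) and 0.30 (adjusted p = 0.00875). The WT calls of Nfya and Nfyc were lost without any of 3 and 6 libraries, and the Cav1KO calls of Nfyb and Nfyc without Cav1KO soft replicate 2 (adjusted p = 0.0607 and 0.0654). Sp1 fell in WT (-0.23, adjusted p = 0.0489, a call lost without any of 6 libraries) and in Cav1KO cells (-0.35, adjusted p = 0.00695, lost without Cav1KO soft replicate 1 at 0.0619). The regulators had 0 interactions called higher (1 at an unadjusted p below 0.05, 0 by edgeR or DESeq2) and 1 lower. Over all genes 4.47% were higher and 6% lower. Between genotypes 7 regulators were higher and 2 lower on stiff, against 25% and 26.6% of all genes. On soft 4 were higher and 1 lower, against 24.1% and 29.9%.

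Of 10 genes that supply carbon and NADPH, 4 rose and 2 fell on stiff in WT, against 22.1% and 26.3% of all genes. In Cav1KO cells 6 rose and 3 fell, against 27.9% and 28.2%. Of their interactions 1 was higher and 3 lower, against 4.47% and 6%. Citrate synthase (Cs), the source of the citrate that Acly cleaves, rose by 0.52 in WT and 0.57 in Cav1KO cells (adjusted p = 0.000458 and 0.000197). The citrate carrier gene Slc25a1 fell (-0.46 and -0.31, adjusted p = 0.00977 and 0.0429), with the WT call lost without WT soft replicate 1 (adjusted p = 0.0739) or WT stiff replicate 1 (0.0564) and the Cav1KO call without any of 7 libraries. Malic enzyme (Me1), a source of NADPH, rose by 0.35 and 0.72 (adjusted p = 0.00390 and 6.92e-05), while Idh1, another source, fell (-1.01 and -0.86, adjusted p = 7.35e-05 and 7.30e-05). The glucose transporter gene Slc2a1 rose in Cav1KO cells by 0.75 (adjusted p = 7.63e-05), differed by 0.06 in WT (adjusted p = 0.547), and was lower in Cav1KO cells (-1.0 on stiff and -1.70 on soft, adjusted p = 1.08e-05 and 4.50e-07). Between genotypes 4 of the 10 were called higher and 3 lower on stiff, against 25% and 26.6% of all genes. On soft 4 were called higher and 4 lower, against 24.1% and 29.9%.

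Of 16 other tested enzymes of synthesis, elongation and desaturation, 2 rose and 5 fell on the stiff gel in WT. In Cav1KO cells 9 rose and 3 fell. The shares of all genes were 22.1% and 26.3% in WT and 27.9% and 28.2% in Cav1KO cells. Mecr, of the mitochondrial pathway of fatty acid synthesis, rose by 0.91 and 0.99 (adjusted p = 0.000222 and 9.14e-05). Cyb5r3, which passes electrons to desaturases through cytochrome b5, fell (-0.87 and -0.82, adjusted p = 0.000101 and 7.42e-05), as did Ptplad2, a dehydratase of elongation (-1.02 and -1.24, adjusted p = 0.000521 and 0.000135). The elongase gene Elovl7 fell by 1.04 in WT (adjusted p = 0.000108) and differed by -0.14 in Cav1KO cells (adjusted p = 0.251). Of these 16, 1 interaction was higher and 2 lower, against 4.47% and 6% of all genes. Between genotypes 7 were higher and 5 lower on stiff, against 25% and 26.6% of all genes. On soft 5 were higher and 6 lower, against 24.1% and 29.9%.

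The cholesterol genes, the other large group of SREBP targets, had 21 tested members. On the stiff gel 1 rose and 10 fell in WT, against 22.1% and 26.3% of all genes. In Cav1KO cells 18 rose and 0 fell (0 lower at an unadjusted p below 0.05, and 0 by edgeR or DESeq2), against 27.9% and 28.2%. The median of the 21 was -0.11 in WT and 0.60 in Cav1KO cells. The interaction was lower for 17 and higher for 0 (0 at an unadjusted p below 0.05, and 0 by edgeR or DESeq2). Over all genes 6% were lower and 4.47% higher. Among the 10 enzymes Scd1 and Scd2 had the negative sign and were called. Acly, Acss2, Fads1 and Fads2 had it without a call, and Acaca, Fasn, Elovl5 and Elovl6 had the opposite sign without a call. Idi1 and Msmo1, enzymes of that pathway, rose by 1.66 and 1.18 in Cav1KO cells (adjusted p = 1.48e-05 and 0.000111). Tm7sf2, a sterol reductase, fell by 0.77 in WT (adjusted p = 0.0133, lost without WT soft replicate 2 at 0.0820 or WT stiff replicate 1 at 0.0923) and differed by -0.19 in Cav1KO cells (adjusted p = 0.463). On the soft gel 14 of the 21 were lower and 3 higher in Cav1KO than WT cells, against 29.9% and 24.1% of all genes. On the stiff gel 2 were lower and 13 higher, against 26.6% and 25%. Scd1 and Scd2 were lower in Cav1KO cells on both gels.

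**Figure D5:**
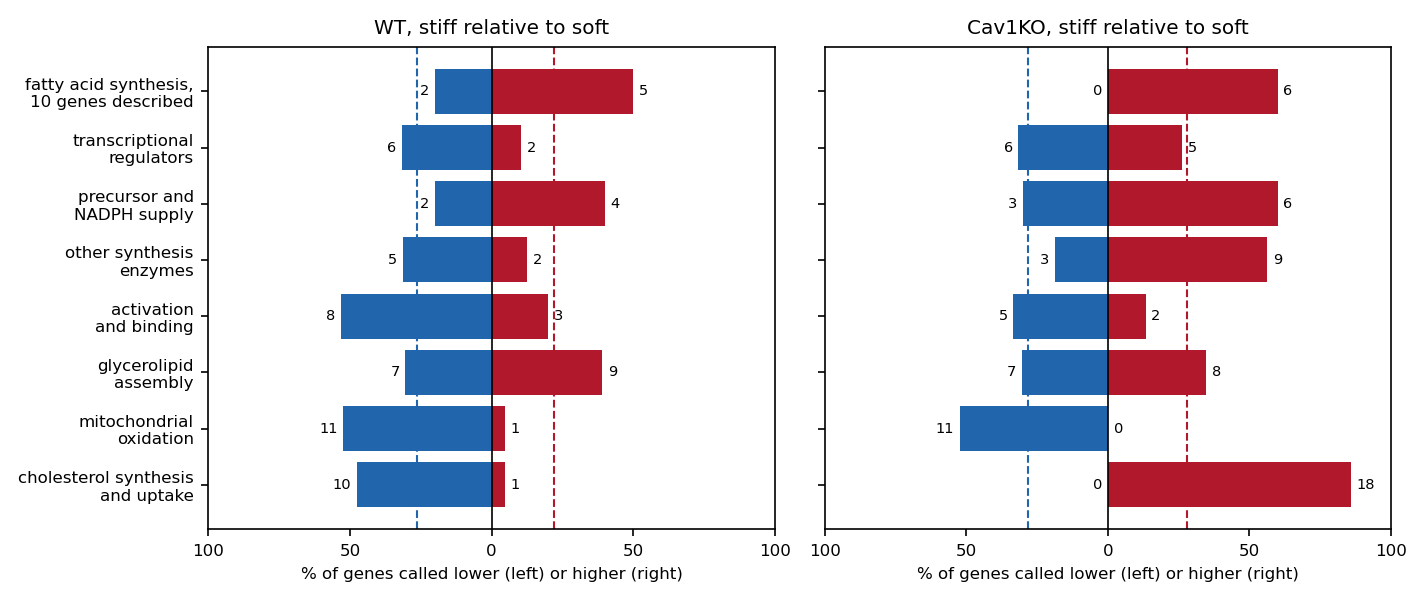
Percent of the tested genes of each list called higher (right) or lower (left) on the stiff gel in WT and in Cav1KO cells, with the number of genes at each bar; dashed lines are the percent over all genes tested. The 10 genes described have 5 and 6 called higher, and the cholesterol genes change from 10 called lower in WT to 18 called higher in Cav1KO cells.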

How the data were processed

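RNA-seq of poly(A) RNA was made from 500 ng of total RNA and read as single 60-base reads. Per the labels, the submitters' processing notes name CASAVA 1.8.2, cutadapt, RSEM 1.2.3 and GRCm38. The authors deposited a signal, TMM-normalized CPM per gene and library, in which 100% of the values were whole multiples of 1 read within 0.01 read, so reads could be recovered. How reads of similar genes were shared among them is not given in the sources used here.

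Genes with at least 1 CPM in 2 libraries (12494) were fitted on the scale log2(CPM + 1) with limma 3.58.1 (R 4.3.3), with a mean-variance trend, all 8 libraries in 1 fit and 4 residual degrees of freedom. Two-sided p-values were adjusted by Benjamini-Hochberg over all genes, at a threshold of 0.05. The alternatives were edgeR 4.0.16 and DESeq2 1.42.0 on the recovered reads, pseudocounts of 0.5 and 5, no filter, no trend, median centring, quantile normalization, a replicate block, and leaving out each library in turn. Positions and transcripts are from GENCODE M21 on GRCm38, and promoters from RefSeq. Scripts were tested on simulated data. The members and gene lists were chosen with earlier results of these data known, and the lists are described by counts and medians without a list test. Of the lists, regulators called for stiffness or the interaction are named, with Srebf1, Srebf2, Insig1 and Scap, and from the other lists the 3 largest called stiffness effects in each genotype among genes with a mean of at least 5 CPM. Of the genes so named, 1 is not reported here. Where 0 reads were seen, up to 3 are possible (0.151 to 0.181 CPM), counting error alone considered. Columns not mapped to a sample: 0.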

Additional observations from a re-analysis of the deposited data

Results flagged for a closer look

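For 12 of the genes named, the stiffness effect in WT minus that in Cav1KO cells passed limma's interaction test. Among the 10 enzymes these were Scd1 (-0.45) and Scd2 (-0.55), both called higher on the stiff gel in Cav1KO cells and not called in WT. The negative sign was shared by Insig1 (-1.0), Me1 (-0.38), Slc2a1 (-0.69), the elongase gene Elovl7 (-0.90) and the fatty acid transporter gene Slc27a1 (-0.71). Fabp5, a fatty acid binding protein, had the opposite sign (0.42). The cholesterol genes Idi1 (-2.08), Fdft1 (-0.89), Msmo1 (-1.55) and Nsdhl (-1.13) completed the set. Of these, Idi1, Fdft1, Msmo1 and Nsdhl kept the call in all 17 alternatives, whereas the calls of Me1 and Fabp5 (adjusted p = 0.0490 and 0.0493) were kept in 3 and 5 of 17. Without single libraries the call was lost for Slc27a1 in 6 fits (adjusted p from 0.0537 to 0.154), for Slc2a1 in 4 (0.0503 to 0.0870) and for Elovl7 in 3 (0.0554 to 0.0775).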

How the results depend on the processing

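With edgeR, no filter, either pseudocount or the replicate block, all 50 differences of the 10 genes kept their direction and their side of the threshold. With a replicate block 5 genes were called higher and 2 lower in WT, as without it. The correlation of same-numbered deviations ran from -0.367 (WT soft with WT stiff) to 0.415 (WT stiff with Cav1KO stiff) between groups. These correlations cannot show whether libraries with the same number were handled together. Median centring took the genes called lower in WT from 2 to 0 (5 higher) and DESeq2 took them to 1, quantile normalization took those called higher in Cav1KO cells from 6 to 3, and without the trend 1 gene in place of 2 had a called interaction. Median centring and quantile normalization moved the median of all genes by at most 0.09. Leaving out 1 library gave 2 (without WT soft replicate 1) to 5 genes called higher in WT and 0 (without WT soft or WT stiff replicate 1) to 2 lower. It gave 0 to 1 interactions higher and 0 to 2 lower. These fits assume that the lone library of a group varies like the others, and the cause of the other changes was not tested.

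Signs turned only for values that were not called. With quantile normalization these were Acly's interaction (0.0859) and, in Cav1KO cells, the stiffness differences of Acss2 (0.0781) and Fads1 (-0.13). With DESeq2 the latter was -0.0038, and with median centring Elovl5's interaction was -0.0362. Without 1 library the values ran from -0.14 to 0.12 for Acly's interaction, from -0.21 to 0.0455 for its genotype difference on stiff, from -0.0420 to 0.0588 for Elovl5's interaction, and in Cav1KO cells from -0.26 to 0.0568 for the stiffness difference of Elovl6 and from -0.0049 to 0.0079 for that of Fads1. Depth limits Acss2 most, with as few as 82 reads.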

Other observations

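Genes that activate or bind fatty acids had 15 tested members. On the stiff gel 3 rose and 8 fell in WT, against 22.1% and 26.3% of all genes. In Cav1KO cells 2 rose and 5 fell, against 27.9% and 28.2%, and the medians were -0.38 in WT and -0.15 in Cav1KO. Fabp5 rose by 1.07 and 0.65 (adjusted p = 5.09e-05 and 0.000227), and the acyl-CoA synthetase gene Acsl5 by 0.63 and 0.86 (adjusted p = 0.000469 and 6.51e-05). Slc27a1, a fatty acid transporter, fell (-1.93 and -1.22, adjusted p = 3.42e-05 and 6.55e-05), as did Acsf2 (-0.84 and -0.93, adjusted p = 0.000428 and 0.000183). Fabp5 was higher in Cav1KO than in WT cells by 2.81 on stiff and 3.23 on soft (adjusted p = 4.25e-08 and 2.34e-08). Of the 15, 8 were higher and 4 lower in Cav1KO cells on stiff, against 25% and 26.6% of all genes. On soft 8 were higher and 5 lower, against 24.1% and 29.9%. Of their interactions 1 was higher and 3 lower, against 4.47% and 6%.

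Of 21 genes of mitochondrial fatty acid oxidation, 1 rose and 11 fell on stiff in WT, against 22.1% and 26.3% of all genes. In Cav1KO cells 0 rose (0 at an unadjusted p below 0.05, and 0 by edgeR or DESeq2) and 11 fell, against 27.9% and 28.2%. The medians were -0.39 in WT and -0.23 in Cav1KO. Cpt1c, a carnitine palmitoyltransferase, fell (-1.12 and -0.92, adjusted p = 0.000109 and 0.000155). Acadm, an acyl-CoA dehydrogenase, fell (-1.03 and -0.81, adjusted p = 0.000530 and 0.00135), as did Slc25a20, the carnitine carrier (-0.84 and -0.69, adjusted p = 0.000869 and 0.00173). Cpt1a, the entry enzyme that malonyl-CoA inhibits, fell in Cav1KO cells by 0.88 (adjusted p = 0.000769) and differed by -0.16 in WT (adjusted p = 0.351), with an interaction that missed the threshold (0.71, adjusted p = 0.0503). Between genotypes 7 were higher and 5 lower on stiff, against 25% and 26.6% of all genes. On soft 8 were higher and 7 lower, against 24.1% and 29.9%. Of the interactions 2 were higher and 0 lower (4 at an unadjusted p below 0.05, and 0 by edgeR or DESeq2). Over all genes 4.47% of interactions were higher and 6% lower. Of 23 genes of glycerolipid assembly and storage, 9 rose and 7 fell on the stiff gel in WT. In Cav1KO cells 8 rose and 7 fell, so the calls ran both ways, beside the same shares of all genes. Lpin1, a phosphatidate phosphatase, fell (-1.48 and -1.73, adjusted p = 7.15e-05 and 2.11e-05), as did Plin3, a lipid droplet coat protein (-1.01 and -0.86, adjusted p = 4.36e-05 and 3.23e-05), and Lipe, hormone-sensitive lipase (-1.10 and -0.86, adjusted p = 0.000309 and 0.000774). Between genotypes 10 of these 23 were higher and 6 lower on stiff, and 8 higher and 6 lower on soft. Their interactions were called for 2 in each direction. The shares of all genes were those given above for the oxidation genes.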
